A study of Mus musculus with 22 samples.

Results

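The genes described here are 37 genes of fatty acid oxidation and ketone body synthesis in mouse liver, read from the count table wherever its gene symbol equalled a name on the list. They comprised 3 genes of the carnitine shuttle, 16 of mitochondrial oxidation, 2 of ketone body metabolism, 9 of peroxisomal oxidation, 6 acyl-CoA thioesterases and 1 kinase that switches fuel use. All 37 were among the 55573 genes of the table, and all 37 were among the 14062 genes with a mean of at least 10 reads per library that were tested. Liver mRNA of 22 C57BL/6 mice was sequenced, with 1 library for each mouse. Control mice (Cre) carried wild-type Flcn and Albumin-Cre, so hepatocytes of both genotypes expressed the recombinase. Liver-Flcn-/- mice (knockout mice) carried 2 floxed Flcn alleles and Albumin-Cre, which removes 1 exon of Flcn (folliculin, a regulator of nutrient signalling at the lysosome) in hepatocytes. Loss of the exon in other liver cells was not tested. From 6 weeks of age the mice ate, ad libitum, either chow with 10% of its energy from fat or a methionine- and choline-deficient (MCD) diet for 6 weeks, and livers were taken at 3 months of age. The groups were Cre mice on chow (n = 6), Cre mice on MCD (n = 5), liver-Flcn-/- mice on chow (n = 5) and liver-Flcn-/- mice on MCD (n = 6). Chow and MCD came from different suppliers, so the lack of methionine and choline cannot be told apart from other differences between the feeds. Total counts ran from 13751347 to 21144388 reads per library.

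Long-chain fatty acids are activated to acyl-CoA esters and enter mitochondria through the carnitine shuttle, in which CPT1A makes the carnitine ester, the carrier SLC25A20 moves it across the inner membrane and CPT2 restores the CoA ester. Repeated rounds of dehydrogenation, hydration, dehydrogenation and thiolysis then shorten the chain, and the electrons of the acyl-CoA dehydrogenases pass through the electron transfer flavoprotein (ETFA with ETFB) and ETFDH to ubiquinone. Liver turns much of the resulting acetyl-CoA into ketone bodies for export during fasting, while peroxisomes shorten very long and branched chains and thioesterases release free acids from acyl-CoA. Many of these genes are targets of the nuclear receptor PPARα.

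Levels are given as CPM, read counts scaled to a common library size with edgeR's TMM factors, and changes as log2 fold changes from an edgeR fit of all 22 libraries, with p-values adjusted over the 14062 genes and a call at an adjusted p under 0.05. TMM sets the bulk of genes to no change, and its factors were 0.815 to 0.969 on chow and 1.06 to 1.2 on MCD. Scaling by total counts alone moved the median of all tested genes by 0.42 (log2) in the diet comparison in Cre mice, by 0.26 in that in knockout mice, by 0.15 in the genotype comparison on chow, by −0.01 in that on MCD and by −0.16 in the interaction. Rises and falls below are therefore relative to the bulk of genes. In bulk liver RNA, fewer hepatocytes and less RNA per hepatocyte cannot be told apart.

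Flcn itself was checked in every mouse. Its level in Cre livers ranged from 26.1 through a median of 31.8 to 40.2 CPM on chow and was 31.7, 18.2, 39.9, 32.5 and 23.6 CPM on MCD. Knockout livers had 24.2, 20, 16.7, 19.4 and 21.8 CPM on chow and ranged from 17.6 through a median of 26.6 to 32.6 CPM on MCD. On chow the genotypes did not overlap and the log2 fold change was −0.63 (SE 0.173, edgeR adjusted p = 0.025), whereas on MCD they overlapped and the log2 fold change was −0.16 (SE 0.170, edgeR adjusted p = 0.57). Reads over the whole gene can fall only in part when 1 exon is lost in only part of the cells.

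All 10 hepatocyte markers examined, Alb the most abundant, were detected. Their summed level had medians of 136635 CPM in Cre mice on chow, 104555 CPM in Cre mice on MCD, 121628 CPM in knockout mice on chow and 77394 CPM in knockout mice on MCD. In each genotype 6 of the 10 fell on MCD, while 1 rose in Cre mice and 0 in knockout mice. Of all tested genes 28.2% fell in Cre mice and 22.5% in knockout mice. Against Cre mice, knockout mice had 2 of the 10 lower on chow and 3 on MCD, with 0 higher. Markers of stellate cells and fibroblasts, led by Dcn, had median sums of 337 CPM and 633 CPM in Cre mice on chow and on MCD, against 404 CPM and 418 CPM in knockout mice. Of those 8 genes, 6 rose on MCD in Cre mice and 5 were lower in knockout than in Cre mice on MCD. Macrophage markers, led by Cd5l, had median sums of 497 and 730 CPM in Cre mice and of 594 CPM on both diets in knockout mice. Of those 10 genes, 5 rose and 2 fell on MCD in Cre mice, and 1 rose and 4 fell in knockout mice. Bile duct markers, led by Spp1, had median sums of 57.5 and 134 CPM in Cre mice and of 117 and 124 CPM in knockout mice, and 3 of the 6 rose on MCD in Cre mice. On each diet 2 of the 6 were higher and 0 lower in knockout than in Cre mice. Erythroid markers, led by Hbb-bs, had median sums of 213 and 241 CPM in Cre mice and of 293 and 160.2 CPM in knockout mice, with 3 of the 5 higher on MCD in Cre mice. Endothelial markers, led by Ptprb, went from medians of 240.4 to 196 CPM in Cre mice and of 262 to 211 CPM in knockout mice. Of the 6, 3 fell and 1 rose in Cre mice, and 4 fell and 0 rose in knockout mice. Lymphocyte markers, led by Cd79a, summed to at most 7.84 CPM. Some MCD libraries also held skeletal muscle RNA: the 15 muscle markers, led by Myh1, summed to 3627 CPM in Cre MCD mouse 3, 174 CPM in Cre MCD mouse 4 and 81.8 CPM in knockout MCD mouse 3. Adipocyte markers summed to at most 6.56 CPM. The part of these cells in the results below was not tested, except that counts are also given without the 3 libraries with the most muscle RNA.

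The labels give no sex. Xist, the RNA of the inactive X chromosome, had 5411 to 7573 counts in 12 libraries and at most 19 counts in the other 10, and 3 libraries with Xist were in each group. Cre MCD mouse 1 and knockout chow mouse 2 held Xist together with Y-linked reads at 18.1% and 14% of the mean of the libraries without Xist. Cre chow mouse 2, knockout chow mouse 4 and knockout MCD mouse 3 also held both, with Y-linked reads at 5.35%, 6.48% and 7.65%. The remaining libraries with Xist had at most 1.59%. The 5 chow libraries listed with a low share of uniquely mapped reads were the 5 chow libraries without Xist, so on chow that share and the sex cannot be told apart.

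Per kilobase of exon, levels differed widely among the 37 genes. Acaa2, a mitochondrial thiolase of fatty acid oxidation, was the most abundant with a mean of 454 CPM per kb over the 4 groups. The peroxisomal thiolase Acaa1b (240 CPM per kb), Etfa (199), the very-long-chain dehydrogenase Acadvl (196) and the long-chain dehydrogenase Acadl (150.2) followed. Cpt2 was the most abundant gene of the carnitine shuttle (49.5 CPM per kb) and Acot12 of the thioesterases (32.5). These orders rest on exonic length, which merges the exons of all annotated transcripts of a gene and can exceed the length of its mRNA. It was 1.52 kb for Acaa2, against 8.29 kb for Echs1 and 8.73 kb for Hadha. For Cpt2 it was 2.39 kb and for Cpt1a 7.64 kb. In CPM, Cpt1a was above Cpt2 in every group, at means of 304 and 138 CPM in Cre mice on chow. Acot1 was the lowest of all at 2.36 CPM per kb.

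Changes on the MCD diet were mixed in direction in Cre mice and mostly upward in knockout mice. In Cre mice 9 of the 37 genes rose and 13 fell with TMM scaling, against 18 and 3 when libraries were scaled by total counts alone, so the balance of directions rests on the scaling. Scaled by total counts, 56.2% of all tested genes were higher and 12.4% lower. The 22 calls with TMM were 59.5% of the genes, where 57.5% of all tested genes were called (29.3% higher and 28.2% lower). In knockout mice 14 rose and 4 fell (28 and 1 by total counts alone, where 41.3% and 12.3% of all tested genes were). The 18 calls with TMM were 48.6% of the genes, where 45% of all tested genes were called (22.5% higher and 22.5% lower). The median log2 fold change of the 37 genes was −0.03 in Cre mice and 0.24 in knockout mice, beside 0.01 and 0.00 over all tested genes. Both shares were close to those of all tested genes. The diets did not overlap for 13 genes in Cre mice and 17 in knockout mice, where 32.5% and 29.2% of all tested genes had no overlap.

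**Figure D1:**
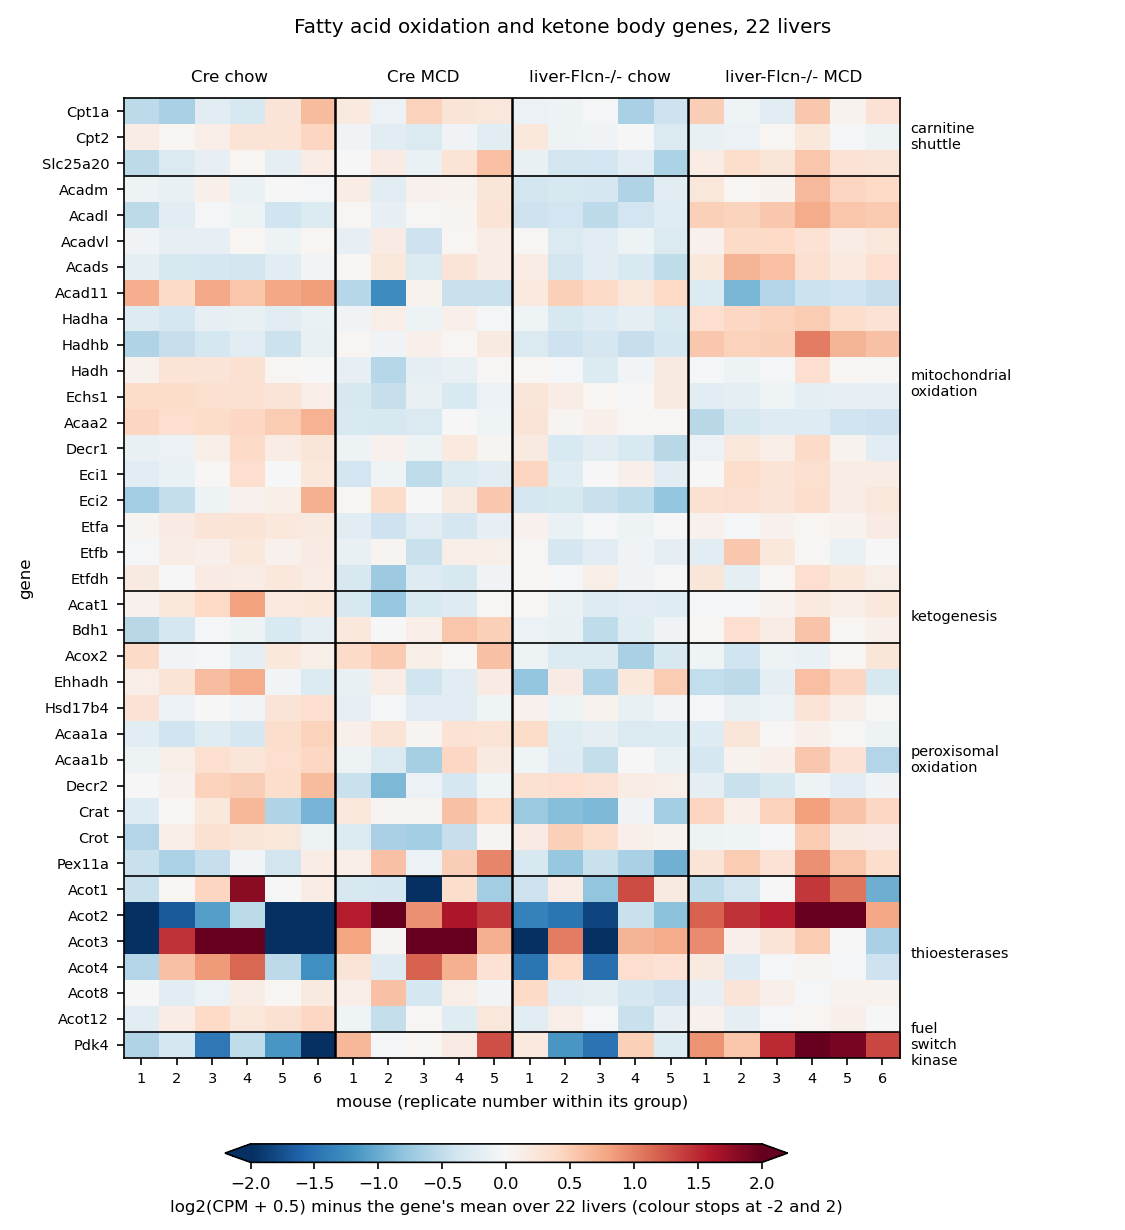
Each row is 1 of the 37 genes, grouped by role, and each column 1 of the 22 mice. Colour is the log2 level of the gene in that mouse minus its mean over all mice. The largest contrasts are in the thioesterases and Pdk4, and Acadl, Hadha and Hadhb are highest in the 6 knockout mice on MCD.

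The difference between genotypes in the response to MCD was tested as an interaction. It was positive, meaning a more upward response in knockout mice, for 32 of the 37 genes. Of all tested genes 53.5% were positive. It passed the test for 8 genes, all positive (21.6% of the genes, where 8.83% of all tested genes were called, 3.29% higher and 5.54% lower). Those 8 were Acat1, Acadl, Etfdh, Hadhb, Etfa, Acadm, Cpt2 and Hadha. All 16 genes of mitochondrial oxidation had a positive interaction, with a median of 0.41 (log2), and 6 of them passed, as did 1 of 3 genes of the carnitine shuttle and 1 of 2 of ketone body metabolism. Peroxisomal oxidation had 0 of 9 and the thioesterases 0 of 6. Whether these role groups differed from each other was not tested. Cpt2, Acadm and Hadha lost the call without the 3 libraries with muscle RNA, by total counts alone and with no filter on low counts, which left 5 genes in each case.

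**Figure D2:**
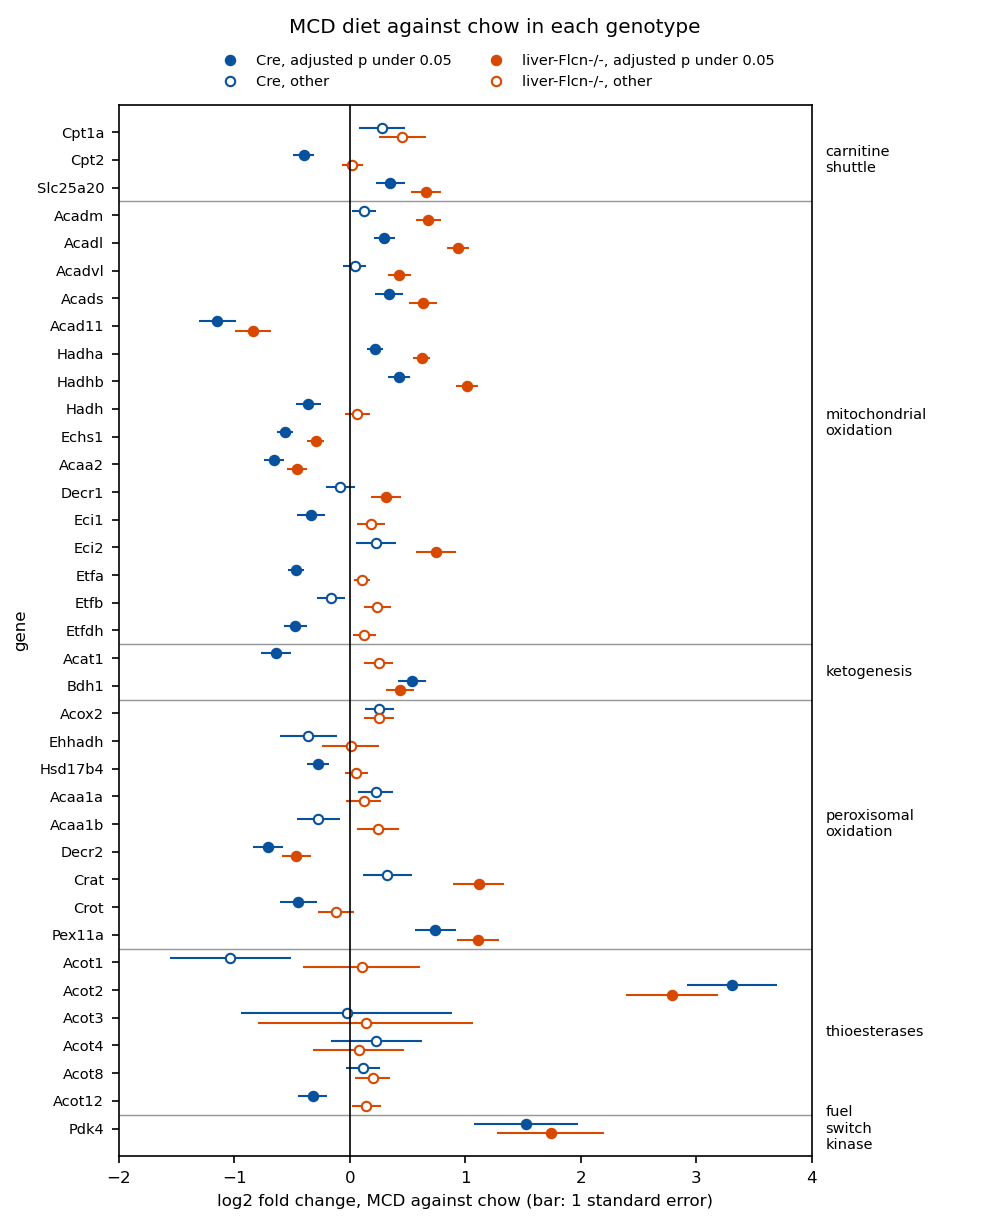
Log2 fold change of MCD against chow for each gene with 1 standard error, in Cre mice (blue) and in knockout mice (orange), with filled points at an edgeR adjusted p under 0.05. Orange points lie to the right of blue ones for 32 of 37 genes. By total counts alone 10 points in Cre mice turn from negative to positive, among them the filled ones of Cpt2, Hadh, Eci1, Hsd17b4 and Acot12.

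In the carnitine shuttle, Slc25a20 rose on MCD in both genotypes and Cpt1a did not pass the test in any comparison, although CPT1A is the step that sets how much acyl-CoA enters mitochondria. Cpt1a in Cre livers ranged from 203 through a median of 264 to 495 CPM on chow and was 365, 291, 435, 379.7 and 372 CPM on MCD, a log2 fold change of 0.28 (SE 0.198, edgeR adjusted p = 0.24). Its level in knockout livers was 293, 297, 311, 203 and 237 CPM on chow and ranged from 273 through a median of 361 to 464 CPM on MCD, a log2 fold change of 0.46 (SE 0.2, edgeR adjusted p = 0.068). The diets overlapped in both genotypes, and Cre mice on chow spread the most. Slc25a20 had 109 ± 17.7 CPM (n = 6, SD) and 139 ± 28.4 CPM (n = 5, SD) in Cre mice on chow and on MCD, and 95.3 ± 12.3 CPM (n = 5, SD) and 150.3 ± 14.8 CPM (n = 6, SD) in knockout mice. Its log2 fold changes on MCD were 0.35 (SE 0.127, edgeR adjusted p = 0.023) and 0.66 (SE 0.129, edgeR adjusted p = 0.00029). The call in Cre mice was lost when Cre chow mouse 1 or Cre MCD mouse 5 was left out, without the 5 chow libraries with few uniquely mapped reads and in a fit of only the 2 groups compared.

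Cpt2, the enzyme that restores the acyl-CoA ester inside the mitochondrion, fell on MCD in Cre mice relative to the bulk of genes, a direction that total counts alone turned to 0.026 (log2). Cpt2 in Cre livers ranged from 122 through a median of 137 to 159 CPM on chow and was 113, 101, 96.2, 112 and 101 CPM on MCD, with no overlap between the diets. Livers of the knockout held 137, 110.3, 113, 117 and 96.9 CPM on chow and ranged from 106 through a median of 113 to 137 CPM on MCD. The log2 fold changes on MCD were −0.40 (SE 0.0902, edgeR adjusted p = 0.00075) in Cre mice and 0.02 (SE 0.0897, edgeR adjusted p = 0.86) in knockout mice, and the interaction was 0.42 (SE 0.127, edgeR adjusted p = 0.041). The Cpt2 interaction was lost in 8 of 13 other settings and with 14 of the 22 mice left out in turn.

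Among the acyl-CoA dehydrogenases, which take the electrons in the opening step of each round, those for long, medium and short straight chains rose on MCD in knockout mice. The clearest was Acadl (chr1:66830839-66863277, minus strand). Acadl in Cre livers ranged from 203 through a median of 246 to 286 CPM on chow and was 298, 262, 298, 305 and 354 CPM on MCD. Knockout livers held 220.2, 226, 204, 226 and 248 CPM of it on chow and ranged from 399 through a median of 424 to 489.7 CPM on MCD. Every knockout mouse on MCD was above every mouse of the other 3 groups. The log2 fold changes on MCD were 0.30 (SE 0.0917, edgeR adjusted p = 0.0085) in Cre mice and 0.94 (SE 0.0936, edgeR adjusted p = 8.9e-08) in knockout mice, with an interaction of 0.64 (SE 0.131, edgeR adjusted p = 0.0051). On MCD the genotypes differed by 0.50 (SE 0.0926, edgeR adjusted p = 0.00081), and the exact permutation p was 0.00216, the smallest that groups of 6 and 5 allow. Without the 5 chow libraries with few uniquely mapped reads the rise in Cre mice was 0.17 (edgeR adjusted p = 0.18) and no longer passed, while that in knockout mice was 0.88 and the interaction 0.72.

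Acadm, the medium-chain enzyme, rose by 0.68 (log2) in knockout mice and was at 0.12 (SE 0.105, edgeR adjusted p = 0.33) in Cre mice. Acads, the short-chain enzyme, rose in both genotypes, by 0.34 and 0.64, and Acadvl in knockout mice by 0.43. The Acads call in Cre mice was lost when Cre MCD mouse 2 or 4 was left out (edgeR adjusted p at most 0.0597). The Acadm interaction was 0.56 (SE 0.15, edgeR adjusted p = 0.025), a call lost in 5 of 13 other settings, among them without the 5 chow libraries with few uniquely mapped reads, and when knockout chow mouse 4 was left out. Those of Acads (0.30) and Acadvl (0.39) did not pass. Acadvl overlaps Dvl2 on the other strand over 19.5% of its 75-base stretches, and whether reads were counted by strand is not given in the sources used here.

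Acad11, an acyl-CoA dehydrogenase family member with long-chain substrates, went the other way. Acad11 in Cre livers ranged from 258 through a median of 332 to 354 CPM on chow and was 134, 83.2, 208, 146 and 145 CPM on MCD. Knockout livers had 227, 277, 259.9, 233 and 263 CPM on chow and ranged from 106 through a median of 145 to 165 CPM on MCD. The diets did not overlap in either genotype, and the log2 fold changes were −1.15 (SE 0.159, edgeR adjusted p = 3.3e-06) in Cre mice and −0.84 (SE 0.155, edgeR adjusted p = 0.00015) in knockout mice. Cre MCD mouse 2 was the lowest of all 22.

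The mitochondrial trifunctional protein, which carries out the last 3 steps for long chains, is made of the products of Hadha and Hadhb, neighbours on chromosome 5 that are transcribed away from each other. Hadhb (chr5:30155248-30184593, plus strand) in Cre livers ranged from 77.3 through a median of 89.3 to 105 CPM on chow and was 121, 111, 126, 121 and 133 CPM on MCD. Knockout livers held 96.2, 87.9, 93.1, 85 and 92.2 CPM of Hadhb on chow and ranged from 161 through a median of 174 to 240.1 CPM on MCD. The genotypes overlapped on chow and did not overlap on MCD. Its log2 fold changes on MCD were 0.42 (SE 0.0961, edgeR adjusted p = 0.00076) and 1.01 (SE 0.0983, edgeR adjusted p = 5.8e-08) in Cre and knockout mice, the interaction was 0.59 (SE 0.137, edgeR adjusted p = 0.011), and the genotypes differed on MCD by 0.58 (SE 0.0971, edgeR adjusted p = 0.00032).

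Hadha (chr5:30118304-30155162, minus strand) rose by 0.22 and 0.62 on the log2 scale, with an interaction of 0.40 (SE 0.101, edgeR adjusted p = 0.016), lost in 5 of 13 other settings, and a genotype difference on MCD of 0.39 (SE 0.0714, edgeR adjusted p = 0.00082). The ratio of Hadha to Hadhb reads fell on MCD by 0.21 (log2) in Cre mice (exact permutation p = 0.0584) and by 0.38 in knockout mice (exact permutation p = 0.00649). The latter was 0.0519 after Benjamini-Hochberg adjustment over 8 such tests of this pair and of Etfa with Etfb, and 0 of the 8 passed. Hadhb shares 16.4% of its 75-base stretches with the pseudogene Gm13910, so part of its reads may not have been counted. The stretch between the starts of the gene positions given above is 85 bases long and contains no exon. It is printed because both genes rose on MCD in both genotypes. It is the GRCm38.p6 plus strand at chr5:30155163-30155247, from RefSeq's promoter sequences, with GGGCGG in capitals.
between Hadha and Hadhb: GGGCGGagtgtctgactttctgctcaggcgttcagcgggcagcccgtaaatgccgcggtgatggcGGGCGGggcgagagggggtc
GGGCGG, searched on both strands, was found in 23 of the 35 promoter entries of these genes (65.7%) and in 35.7% of all 32851 entries. Each entry spans 250 bases before a gene's start to 50 after it, and 32 of the 37 genes have at least 1, leaving out Acaa2, Decr1, Acat1, Hsd17b4 and Crat. The direct repeat DR1, to which PPARα binds with RXR, was found in 0 of the 35 entries and in 0.0396% of all, TCAAGGTCA in 0 and 0.423%, and TTCNNNGAA in 3 (8.57%; Cpt2, Hadha and Hadhb) and 8.3%. The Hadha and Hadhb windows, set on starts other than those of the gene positions, overlap. The same bases gave the TTCNNNGAA match in both and 1 GGGCGG match in both. A match is a run of letters in a short window and not a site of binding.

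Of the 3 genes of electron transfer from the dehydrogenases, Etfa and Etfdh fell in Cre mice, did not pass in knockout mice and had an interaction that passed. Etfa (chr9:55454508-55512243, minus strand) in Cre livers ranged from 381 through a median of 418 to 443 CPM on chow and was 312, 274, 314, 290.4 and 326 CPM on MCD. Knockout livers held 389, 333, 359.9, 339 and 363 CPM of Etfa on chow and ranged from 359 through a median of 385 to 412 CPM on MCD. Cre mice on MCD were below every other mouse. The log2 fold changes on MCD were −0.46 (SE 0.0678, edgeR adjusted p = 6.6e-06) in Cre mice and 0.11 (SE 0.0674, edgeR adjusted p = 0.2) in knockout mice, and the interaction of 0.57 (SE 0.0955, edgeR adjusted p = 0.0013) had the smallest adjusted p of the 37 genes.

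Etfdh, the oxidoreductase that passes the electrons to ubiquinone, had the same shape. Etfdh in Cre livers ranged from 260.2 through a median of 289.7 to 301 CPM on chow and was 207, 157, 216, 207 and 248 CPM on MCD, with no overlap. Knockout livers held 266, 253, 280.2, 247 and 260.3 CPM of Etfdh on chow and ranged from 229 through a median of 291 to 327 CPM on MCD. Its log2 fold changes on MCD were −0.47 (SE 0.0982, edgeR adjusted p = 0.00035) and 0.13 (SE 0.0976, edgeR adjusted p = 0.31), with an interaction of 0.60 (SE 0.138, edgeR adjusted p = 0.011). Both falls in Cre mice lost their call by total counts alone, where Etfa was at −0.05 and Etfdh at −0.06, while both interactions kept theirs. The Etfdh interaction was 0.60 (edgeR adjusted p = 0.057) and did not pass without the 5 chow libraries with few uniquely mapped reads. Etfb, which pairs with Etfa, passed in no comparison, at −0.16 (SE 0.119, edgeR adjusted p = 0.25) and 0.24 (SE 0.119, edgeR adjusted p = 0.11) on MCD. Its row may have lost reads, since 39.6% of its 75-base stretches are shared with Gm45233.

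Acaa2 was higher in Cre mice on chow than in any other group. Acaa2 in Cre livers ranged from 848 through a median of 900.0 to 1089 CPM on chow and was 545, 537, 547, 677 and 633 CPM on MCD. Knockout livers held 803, 695, 720.2, 686 and 681 CPM of Acaa2 on chow and ranged from 458 through a median of 524 to 561 CPM on MCD. It fell on MCD in both genotypes, at log2 fold changes of −0.66 in Cre mice and −0.46 in knockout mice, and was lower in knockout than in Cre mice on chow at −0.37 (SE 0.0868, edgeR adjusted p = 0.009), with no overlap. The fall in knockout mice was −0.20 by total counts alone and did not pass. The chow difference lost its call by total counts alone and without the 5 chow libraries with few uniquely mapped reads.

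Of the other genes of mitochondrial oxidation, the hydratase Echs1 fell in both genotypes (−0.56 and −0.30, log2), although by total counts alone it was at −0.14 and −0.033 and neither passed. The dehydrogenase Hadh fell in Cre mice (−0.36, and 0.053 by total counts alone) and was at 0.07 in knockout mice without passing. Among genes for the oxidation of unsaturated chains, the isomerase Eci1 fell in Cre mice (−0.34, and 0.087 by total counts alone) and Eci2 rose in knockout mice (0.75). The reductase Decr1 rose there at 0.31, a call lost in 6 of 14 other settings and with 15 of the 22 mice left out in turn. On MCD, Eci1 was higher in knockout than in Cre mice by 0.50 with no overlap, a call lost without the libraries with muscle RNA.

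**Figure D3:**
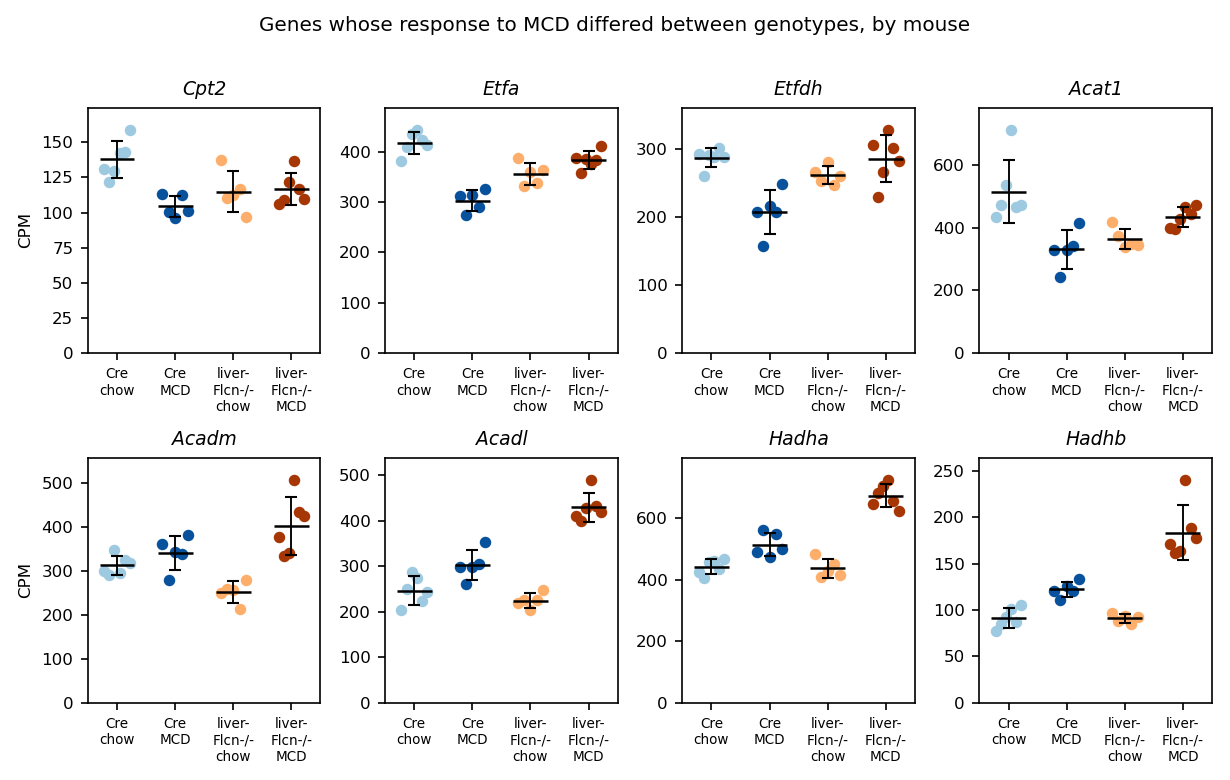
CPM of the 8 genes with an interaction of genotype and diet in each mouse, with the mean and SD of each group. In the upper row, Cpt2, Etfa, Etfdh and Acat1 are lowest in Cre mice on MCD, a fall relative to the bulk of genes that no longer passes by total counts alone (Cpt2 then lies at 0.026, log2). In the lower row, Acadm, Acadl, Hadha and Hadhb are highest in knockout mice on MCD.

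Acat1 and Bdh1 stand at the start and the end of ketone body synthesis, the former joining acetyl-CoA to acetoacetyl-CoA and the latter reducing acetoacetate to β-hydroxybutyrate. They behaved differently. Acat1 (chr9:53580522-53610382, minus strand) in Cre livers ranged from 433 through a median of 472 to 711 CPM on chow and was 328, 242, 329.7, 340.3 and 416 CPM on MCD. Knockout livers held 419, 372, 339, 349 and 344 CPM of Acat1 on chow and ranged from 396 through a median of 436 to 473 CPM on MCD. On chow every knockout liver was below every Cre liver, and on MCD 4 of the 6 were above every Cre liver. Its interaction of 0.89 (SE 0.179, edgeR adjusted p = 0.0046) was the largest of the 8, built from −0.64 (SE 0.127, edgeR adjusted p = 0.00021) in Cre mice and 0.25 (SE 0.126, edgeR adjusted p = 0.11) in knockout mice. By total counts alone the fall in Cre mice was −0.23 and did not pass.

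Bdh1 in Cre livers ranged from 226 through a median of 280.3 to 321 CPM on chow and was 383, 333, 364, 487 and 461 CPM on MCD. Knockout livers held 303, 297, 231, 278 and 313 CPM of Bdh1 on chow and ranged from 338 through a median of 362 to 489.7 CPM on MCD. The diets did not overlap in either genotype and the rises were 0.53 (SE 0.121, edgeR adjusted p = 0.00075) and 0.43 (SE 0.122, edgeR adjusted p = 0.0061), with an interaction of −0.10 (SE 0.172, edgeR adjusted p = 0.77). Oxct1, which extrahepatic cells use to burn ketone bodies, is not among the 37 genes and was chosen after its values were seen. Oxct1 was at 13.2, 9.61, 39.5, 14.7 and 11.2 CPM in Cre mice on MCD, and the highest was Cre MCD mouse 3, the library with the most muscle RNA. Its interaction was −1.30 (SE 0.383, edgeR adjusted p = 0.038) with all libraries and −0.64 (SE 0.236, edgeR adjusted p = 0.12) without the 3 with muscle RNA, where it no longer passed.

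In peroxisomal oxidation 1 of 9 genes rose and 3 fell on MCD in Cre mice, and 2 rose and 1 fell in knockout mice (11.1% and 33.3% against 29.3% and 28.2% of all tested genes, and 22.2% and 11.1% against 22.5% each). Pex11a, a membrane protein of peroxisome division, rose in both, by 0.74 (SE 0.177, edgeR adjusted p = 0.0012) and 1.11 (SE 0.182, edgeR adjusted p = 4.2e-05). Decr2, the peroxisomal dienoyl-CoA reductase, fell in both, at log2 fold changes of −0.71 and −0.46, of which the latter was −0.20 by total counts alone and did not pass. Hsd17b4, the peroxisomal hydratase and dehydrogenase, was lower in Cre mice at −0.27 (SE 0.0964, edgeR adjusted p = 0.02) and at 0.15 by total counts alone. Its call was also lost in 4 more of the 14 other settings and when Cre chow mouse 6 was left out.

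Crat, the carnitine acetyltransferase, in Cre livers ranged from 22.8 through a median of 40.7 to 69.9 CPM on chow and was 50.9, 45.5, 45.5, 66.1 and 57.7 CPM on MCD. Knockout livers held 25.8, 23.9, 23.3, 41.9 and 26.7 CPM of Crat on chow and ranged from 48 through a median of 59.6 to 77.6 CPM on MCD. Diets overlapped in Cre mice and not in knockout mice, where the rise was 1.12 (SE 0.221, edgeR adjusted p = 0.00032). In Cre mice the change was 0.33 (SE 0.215, edgeR adjusted p = 0.2), and the interaction of 0.79 (SE 0.307, edgeR adjusted p = 0.11) did not pass.

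Crot, the octanoyltransferase that hands shortened chains to carnitine, in Cre livers ranged from 489 through a median of 827 to 904 CPM on chow and was 602, 467, 455, 534 and 759 CPM on MCD. Knockout livers held 817, 1017, 936, 782 and 768 CPM of Crot on chow and ranged from 680.2 through a median of 769 to 1042 CPM on MCD. For Crot the diets overlapped in each genotype, and the genotypes overlapped on each diet. It fell in Cre mice, at −0.45 (SE 0.158, edgeR adjusted p = 0.02), and was higher in knockout than in Cre mice on MCD by 0.50 (SE 0.159, edgeR adjusted p = 0.034), and both calls were lost without the libraries with muscle RNA. Scaled by total counts the change in Cre mice was −0.038 and did not pass.

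Acaa1b, the most abundant peroxisomal gene per kilobase, passed in no comparison. Acaa1b in Cre livers ranged from 432 through a median of 565 to 620.4 CPM on chow and was 434, 381, 293, 619.9 and 526 CPM on MCD. Knockout livers held 437, 387, 332, 465 and 421 CPM of Acaa1b on chow and ranged from 309 through a median of 491 to 675 CPM on MCD. Spread within the MCD groups was wider than any difference of means, and 24.4% of its 75-base stretches are shared with Acaa1a, whose row is uncertain for the same reason. Acaa1a and Ehhadh, the L-bifunctional enzyme, also passed in no comparison with both sexes pooled.

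The thioesterases held both the largest rise and the widest spread. Acot2, a mitochondrial thioesterase for long chains, in Cre livers ranged from 1.5 through a median of 3.48 to 10 CPM on chow and was 44.5, 70.5, 28.3, 46.1 and 39.9 CPM on MCD. Knockout livers held 5.45, 5.05, 3.76, 10.7 and 8.08 CPM of Acot2 on chow and ranged from 25.7 through a median of 43 to 67 CPM on MCD. Every MCD liver was above every chow liver. The log2 fold changes were 3.31 (SE 0.39, edgeR adjusted p = 3.8e-07) in Cre mice and 2.79 (SE 0.396, edgeR adjusted p = 8e-06) in knockout mice, the largest of the 37 genes, and the genotypes differed on MCD by 0.00 (SE 0.352, edgeR adjusted p = 1). Acot2 shares 20.5% of its 75-base stretches with its neighbour Acot1, the cytosolic paralog, which passed in no comparison and was at −1.03 (SE 0.521, edgeR adjusted p = 0.095) and 0.10 (SE 0.508, edgeR adjusted p = 0.89) on MCD. Acot12, a cytosolic acetyl-CoA thioesterase, in Cre livers ranged from 91.9 through a median of 128 to 142 CPM on chow and was 99.6, 76.1, 108, 89.4 and 125 CPM on MCD. Knockout livers held 90.5, 116, 104, 77.7 and 94.9 CPM of Acot12 on chow and ranged from 94.1 through a median of 108 to 114 CPM on MCD. Diets overlapped, and its fall in Cre mice of −0.32 (SE 0.124, edgeR adjusted p = 0.03) lay at 0.088 by total counts alone. The call was also lost in 5 more of the 14 other settings and with 5 of the 22 mice left out in turn. Acot8, a peroxisomal thioesterase, passed in no comparison.

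Acot3 and Acot4, peroxisomal thioesterases of the same cluster on chromosome 12, were chosen after their values were seen. Pooled over all mice neither passed in any comparison, and the Acot3 change on MCD in Cre mice was −0.03 (SE 0.913, edgeR adjusted p = 0.98). Acot3 in Cre livers on chow was 45.1, 78.5 and 135 CPM in the 3 libraries with Xist and 3.32, 3.04 and 0.402 CPM in the 3 without. On MCD it was 28.5, 16.9 and 27.1 CPM in the 3 Cre libraries with Xist and 73.1 and 72.1 CPM in the 2 without. Libraries with Xist were thus high on chow, and those without rose on MCD to or past their level. Knockout livers on chow showed the same gap, with 33.8, 26.4 and 27.5 CPM with Xist and 1.01 and 0.537 CPM (13 and 8 counts) without, and on MCD they ranged from 10.2 through a median of 18.5 to 31.9 CPM.

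A fit with sex read from Xist was added after the counts were seen. Averaged over the sexes, it put the Acot3 change on MCD at 1.58 (edgeR adjusted p = 0.00026) in Cre mice and 2.02 (edgeR adjusted p = 0.00029) in knockout mice, and knockout against Cre mice at −1.57 on chow (edgeR adjusted p = 0.02) and −1.12 on MCD (edgeR adjusted p = 0.0079). Acot4 passed in the same 4 comparisons, at 0.48, 0.51, −0.64 and −0.62. The same fit put female over male Acot3 on chow at 5.24 (SE 0.41, edgeR adjusted p = 6.2e-08) and on MCD at −1.12 (SE 0.283, edgeR adjusted p = 0.084). The difference between the sexes in the MCD response was −6.37 (SE 0.495, edgeR adjusted p = 2e-07) for Acot3 and −2.24 (SE 0.21, edgeR adjusted p = 2.5e-06) for Acot4. With Acox2, higher at 0.63 (SE 0.13, edgeR adjusted p = 0.0076), they were 3 of 37, where 7.48% of all tested genes were called (2.6% higher and 4.88% lower). Acot4 had 107, 129 and 159 CPM in the Cre chow libraries with Xist and 47.4, 49.2 and 30.2 CPM in those without. Acot2, Ehhadh and Crat were also higher in females on chow, at 1.25 (SE 0.329, edgeR adjusted p = 0.018), 0.81 (SE 0.189, edgeR adjusted p = 0.0086) and 0.62 (SE 0.173, edgeR adjusted p = 0.025), and Acaa1a and Hsd17b4 lower. These 7 genes were 5 higher and 2 lower of 37, where 11.8% of all tested genes were called (6.46% higher and 5.38% lower), and on MCD 0 of the 37 and 0.434% of all genes were called (0.178% higher and 0.256% lower). On chow the libraries without Xist were also those with few uniquely mapped reads.

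**Figure D4:**
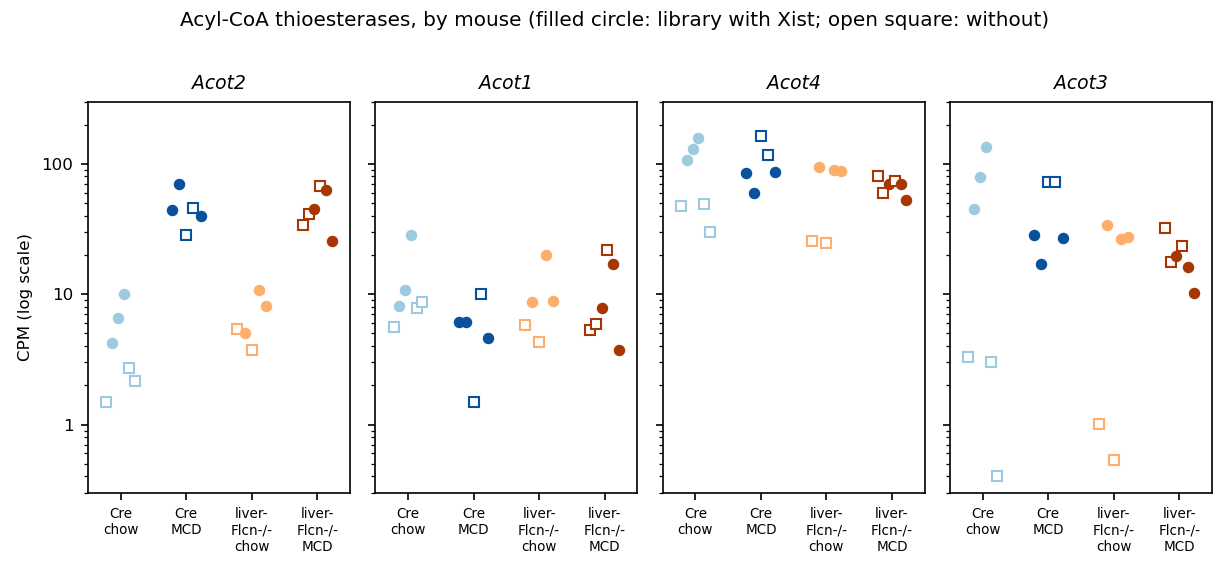
CPM of the 4 clustered thioesterases in each mouse on a log axis, with filled circles for libraries with Xist and open squares for those without. Acot2 is higher in every MCD liver than in every chow liver, and Acot3 and Acot4 on chow are separated by Xist.

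The 100 bases before the annotated starts of these 4 neighbours are printed because the genes lie side by side within the same cluster and Acot2 alone of them passed the test on MCD with both sexes pooled. They are plus strand, GRCm38.p6, from RefSeq's promoter sequences, at chr12:83987761-83987860 (Acot2), chr12:84009390-84009489 (Acot1), chr12:84038279-84038378 (Acot4) and chr12:84052044-84052143 (Acot3), with CCAAT and CACGTG in capitals.
Acot2: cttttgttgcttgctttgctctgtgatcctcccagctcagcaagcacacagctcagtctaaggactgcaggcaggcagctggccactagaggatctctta
Acot1: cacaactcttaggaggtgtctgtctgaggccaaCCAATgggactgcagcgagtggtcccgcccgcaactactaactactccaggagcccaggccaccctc
Acot4: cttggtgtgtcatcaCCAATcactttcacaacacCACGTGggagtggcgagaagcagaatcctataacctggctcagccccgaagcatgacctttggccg
Acot3: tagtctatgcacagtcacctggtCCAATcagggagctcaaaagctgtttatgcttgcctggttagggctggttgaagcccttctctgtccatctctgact
CACGTG was in the promoter entry of 1 of the 37 genes, Acot4 (2.86% of the 35 entries, and 7.15% of all). CCAAT, searched on both strands, was in 19 of the 35 entries (54.3%) and in 37.4% of all.

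Pdk4, the kinase that shuts pyruvate out of mitochondrial oxidation, rose on MCD in both genotypes. Pdk4 in Cre livers ranged from 1.61 through a median of 19.5 to 27.9 CPM on chow and was 56.9, 35.2, 36.6, 40.1 and 87.7 CPM on MCD. Knockout livers held 40.9, 15.6, 12.6, 50 and 29.4 CPM of Pdk4 on chow and ranged from 52.8 through a median of 96.2 to 149 CPM on MCD. MCD livers were above chow livers within each genotype, at 1.53 (SE 0.452, edgeR adjusted p = 0.0065) and 1.74 (SE 0.464, edgeR adjusted p = 0.0041). The genotype difference on MCD of 0.95 (SE 0.449, edgeR adjusted p = 0.16) did not pass.

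Between genotypes on chow, 0 of the 37 genes were higher and 3 were lower in knockout mice (8.11%, where 8.62% of all tested genes were called, 5.52% higher and 3.1% lower). They were Acat1 at −0.50 (SE 0.126, edgeR adjusted p = 0.015), Acaa2 at −0.37 and Etfa at −0.23 (SE 0.0675, edgeR adjusted p = 0.038). Acadm, at −0.31 (SE 0.106, edgeR adjusted p = 0.071), also had no overlap, as did Acat1 and Acaa2 (3 of 37 genes, where 6.94% of all tested genes had none). The Etfa call was lost in 10 of 14 other settings, and by total counts alone 0 of the 3 passed. DESeq2 called 8 of the 37 genes lower, and 596 of all 14062 tested genes. Of the 37 log2 fold changes 32 were negative, with a median of −0.19, beside −0.03 over all tested genes. By total counts alone 23 were negative, with a median of −0.04 beside 0.12. With TMM scaling, 2 of the 10 hepatocyte markers were lower and 0 higher in knockout mice on chow, with a median of −0.42. Of the 10 macrophage markers 2 were higher and 0 lower, and of the 6 bile duct markers 2 were higher and 0 lower.

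Between genotypes on MCD, 8 genes were higher and 1 was lower in knockout mice (24.3%, where 16.6% of all tested genes were called, 8.06% higher and 8.53% lower). Higher were Hadhb, Acadl, Crot, Eci1, Etfdh, Acat1, Hadha and Etfa, from 0.58 down to 0.34 on the log2 scale, of which 6 belong to mitochondrial oxidation. Acadl, Hadha, Hadhb, Eci1 and Etfa had no overlap between the genotypes (5 of 37 genes, where 8.61% of all tested genes had none). Lower was Acox2, the branched-chain oxidase also used in bile acid synthesis, at −0.40 (SE 0.128, edgeR adjusted p = 0.034), a call lost in 3 of 14 other settings. Without the 3 libraries with muscle RNA 5 genes remained higher: Hadhb, Acadl, Etfdh, Hadha and Etfa. The Acat1 call was lost in 5 of 14 other settings and with 8 of the 22 mice left out in turn. For Crot these were 4 settings and 7 mice, and for Acox2 7 mice. The comparisons on chow, on MCD and of the diets share groups of mice and are not independent.

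**Figure D5:**
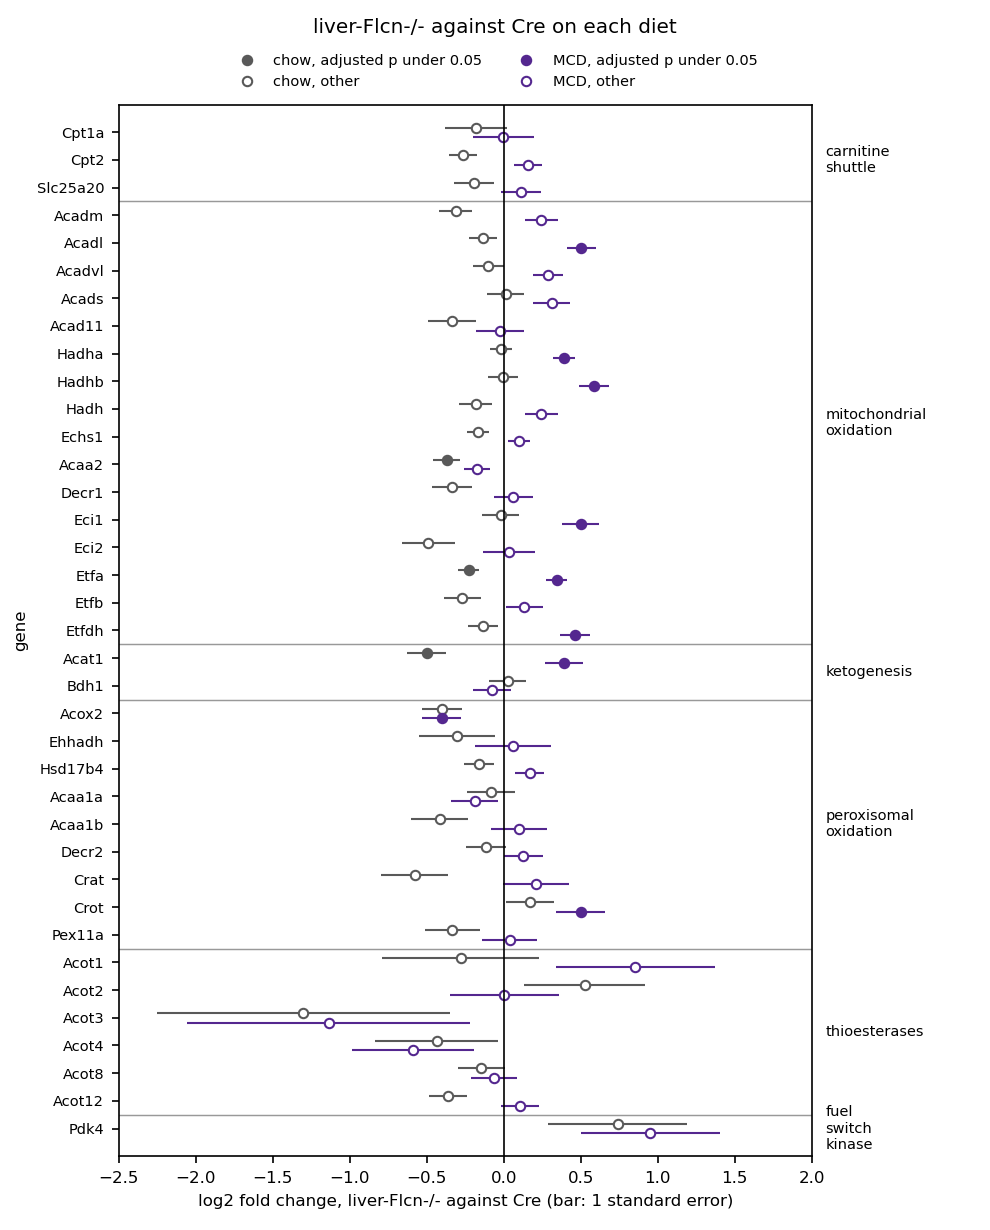
Log2 fold change of liver-Flcn-/- against Cre mice for each gene with 1 standard error, on chow (grey) and on MCD (purple), with filled points at an edgeR adjusted p under 0.05. On chow 32 of 37 points lie left of 0 (23 by total counts alone), and on MCD 28 of 37 lie right of it. Of all tested genes 45.3% were above 0 on chow and 48.0% on MCD. By total counts alone 0 of the chow points pass.

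Other enzymes of fatty acid oxidation, ketone body metabolism and related steps were taken from a list of 54, of which 49 were tested. The list also held genes outside these 2 pathways, such as Acad8, Acadsb and Pdk1, and the counts below include them. On MCD 8 rose and 30 fell in Cre mice and 9 rose and 26 fell in knockout mice, with median log2 fold changes of −0.52 and −0.45. Of all tested genes 29.3% rose and 28.2% fell in Cre mice, and 22.5% did each in knockout mice. With libraries scaled by total counts, 15 rose and 19 fell in Cre mice and 13 rose and 17 fell in knockout mice. Among the smallest adjusted p-values were those of Pecr, a peroxisomal enoyl-CoA reductase, at −2.10 and −1.55 in Cre and knockout mice, and Echdc1, which removes malformed malonyl esters, at −1.58 and −1.42. Acad8 and Acadsb, dehydrogenases of branched amino acid breakdown, also fell, Acad8 at −1.30 in Cre mice and Acadsb at −1.42 in knockout mice.

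Between genotypes on chow 0 of the 49 were higher and 3 lower, among them Pecr (−0.46) and the kinase Pdk1 (−0.68). These were 6.12%, where 8.62% of all tested genes were called (5.52% higher and 3.1% lower). By total counts alone 4 were higher and 0 lower, and without the 5 chow libraries with few uniquely mapped reads 0 passed. On MCD 11 were higher and 3 lower in knockout mice (28.6%, where 16.6% of all tested genes were called, 8.06% higher and 8.53% lower), against 7 and 1 without the libraries with muscle RNA. Acacb, whose product makes the malonyl-CoA that blocks CPT1, was 211 ± 73.4 CPM (n = 6, SD) on chow and 38 ± 14.4 CPM (n = 5, SD) on MCD in Cre mice, and 243 ± 52.4 CPM (n = 5, SD) and 132 ± 21.8 CPM (n = 6, SD) in knockout mice. It was higher in knockout mice on MCD by 1.80 (SE 0.247, edgeR adjusted p = 3.6e-05). The thioesterase Acot13 was higher by 0.86 (SE 0.107, edgeR adjusted p = 1.3e-05) and Acad8 by 0.47. The interaction passed for 11 of the 49 (22.4%, where 8.83% of all tested genes were called, 3.29% higher and 5.54% lower), with 10 positive and Oxct1 negative, a call that rests on the libraries with muscle RNA: without them 9 were positive and 0 negative. Scaling by total counts gave 5 positive and 2 negative. Acsl1, which activates long-chain acids and was chosen after its values were seen, had an interaction of 0.98 (SE 0.233, edgeR adjusted p = 0.013), and of 0.88 without passing when the 5 chow libraries with few uniquely mapped reads were left out.

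Of 20 regulators of fatty acid oxidation, all tested, 5 rose and 7 fell on MCD in Cre mice and 5 rose and 5 fell in knockout mice. These 60% and 50% were close to the 57.5% and 45% called of all tested genes. Scaled by total counts these were 11 and 3 in Cre mice and 9 and 2 in knockout mice. Fgf21, a hormone secreted by hepatocytes, rose by 4.33 (SE 0.496, edgeR adjusted p = 2.7e-07) in Cre mice and by 3.50 (SE 0.535, edgeR adjusted p = 2e-05) in knockout mice. Sirt3, the mitochondrial deacetylase, fell in Cre mice at −1.07, and its interaction of 0.70 (SE 0.167, edgeR adjusted p = 0.014) was the 1 of 20 that passed. That was 5% of the regulators, where 8.83% of all tested genes were called in the interaction (3.29% higher and 5.54% lower). Pparg rose by 1.29 in Cre mice, and the receptor Esrra by 0.82 in knockout mice. Ppargc1a, a coactivator of mitochondrial genes, had 13 ± 3.55 CPM (n = 6, SD) and 19.1 ± 6.97 CPM (n = 5, SD) in Cre mice on chow and MCD, and 19.8 ± 1.98 CPM (n = 5, SD) and 41 ± 10.1 CPM (n = 6, SD) in knockout mice. It was higher in knockout mice on MCD by 1.10 (SE 0.207, edgeR adjusted p = 0.00096) and was at 0.61 (SE 0.207, edgeR adjusted p = 0.073) on chow. On MCD 3 of the 20 were higher and 2 lower (25%, where 16.6% of all tested genes were called), among them Sirt3 at 0.44 and Tfe3, the transcription factor that folliculin keeps out of the nucleus, at −0.29. On chow 0 of 20 passed (1 by total counts alone, with sex by group or without the libraries with muscle RNA), with Tfe3 at −0.17 and Rxra at −0.28. Of all tested genes 8.62% were called between the genotypes on chow. Ppara passed in no comparison, at −0.32 (SE 0.171, edgeR adjusted p = 0.12) and −0.32 (SE 0.17, edgeR adjusted p = 0.13) on MCD.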

How the data were processed

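The authors ligated adapters with unique molecular identifiers to mRNA libraries of liver, sequenced 75-base single-end reads, trimmed them with Trimmomatic, aligned them to GRCm38 with STAR and counted them with HTSeq. They deposited raw counts, the whole number of reads per gene and mouse, without normalization. Versions, the annotation release, the strand setting and any collapsing of identifiers are not given in the sources used here, so errors from counting alone may understate the noise. All 22 columns were matched to a sample label, and of 50 pairs of libraries within a group 0 were identical.

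Genes whose count averaged 10 or more were tested in R 4.3.3 with edgeR 4.0.16 (TMM factors, 4 group means, two-sided quasi-likelihood test, Benjamini-Hochberg adjustment over 14062 genes). The edgeR script was tested on simulated data. Single genes were compared with two-sided exact permutation tests of log2 CPM (prior count 2), for which 0.00216 is the smallest p with 6 mice against 5. Positions come from GENCODE on GRCm38, and shared stretches are 75-base runs that occur in another gene's exons.

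The genes and lists were chosen with earlier results of these data known. Given mouse by mouse were the 3 genes with the largest called change in each of 5 comparisons, the most abundant gene per kilobase of each role group, Cpt1a, Bdh1 and Pdk4. From the other lists came the 3 smallest adjusted p-values in each diet and genotype comparison, apart from some genes that are not reported here.

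Alternatives were limma-voom (limma 3.58.1), DESeq2 1.42.0, RLE, upper-quartile and total-count scaling, 2 other filters, only the groups compared, a sex term, the replicate number as a block, omitting the 5 chow libraries with few uniquely mapped reads, and omitting each mouse in turn. Added after seeing the data were sex by group and omitting the 3 MCD libraries with over 50 CPM of muscle markers or the 2 libraries with Xist and over 10% of the Y-linked reads. The other lists were refitted by total counts, with sex by group and without the chow or muscle libraries. Same-numbered mice of different groups had a mean correlation of 0.00613 after removal of group means.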

Additional observations from a re-analysis of the deposited data

Results flagged for a closer look

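Among 148 sets of libraries, 1 gene in 1 group each, 9 held a mouse far from the rest of its group, where chance gives about 1 in 20. In knockout mice on MCD, mouse 4 was the highest for Acadl (489.7 CPM), Hadhb (240.1 CPM) and Hadh (481 CPM). Cre chow mouse 4 was the highest for Acat1 (711 CPM) and Acot1 (28.5 CPM), and Cre chow mouse 2 the lowest for Etfdh (260.2 CPM). In knockout mice on chow, mouse 1 was the highest for Acaa1a (152 CPM) and Acot8 (19.2 CPM), and mouse 4 for Crat (41.9 CPM). Leaving out any of these mice kept the interactions of Acadl, Hadhb, Etfa, Etfdh and Acat1.

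The response to MCD differed between genotypes, by a test of the interaction, for Cpt2 (0.42 on the log2 scale), Acadm (0.56), Acadl (0.64), Hadha (0.40), Hadhb (0.59), Etfa (0.57), Etfdh (0.60) and Acat1 (0.89). It differed between libraries with and without Xist, by the same kind of test with sex added after seeing the data, for Acox2 (0.63), Acot3 (−6.37) and Acot4 (−2.24), where a negative value means a more downward response in females. These 3 were 8.11% of the 37 genes, where 7.48% of all tested genes were called.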

How the results depend on the processing

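Of 60 calls in the 5 comparisons, 32 held in every alternative and with each mouse left out, among them the interactions of Acadl, Hadhb, Etfa and Acat1. A further 27 were lost or changed sign in at least 1 alternative and 1, the rise of Acads in Cre mice, only when a mouse was left out. Scaling by total counts alone had the widest effect, ending 19 calls, 10 of which ended in no other setting. It gave 18 genes higher and 3 lower on MCD in Cre mice, 28 and 1 in knockout mice, 0 lower in knockout mice on chow and 5 higher in the interaction. It turned the sign on MCD in Cre mice for 10 genes, of which 6 passed with one scaling or the other: Cpt2 (0.026), Hadh (0.053), Decr1 (0.34), Eci1 (0.087), Hsd17b4 (0.15) and Acot12 (0.088). With sex by group, Acot3 was at 1.58 there, averaged over the sexes, and passed. Genes lower in knockout mice on chow numbered 8 with DESeq2 and 6 with sex by group (596 and 594 of all 14062 tested genes). Acox2 as the gene lower in knockout mice on MCD was gone (0) with no filter and with only those 2 groups. It was also gone without the 2 libraries with Xist and over 10% of the Y-linked reads. With sex by group or without the 5 chow libraries 3 genes were lower. Without the 3 libraries with muscle RNA 5 genes were higher on MCD and 5 in the interaction, and with no filter 5 in the interaction.

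With each mouse left out in turn, the genes higher and lower on MCD numbered 8 to 12 and 11 to 13 in Cre mice and 13 to 16 and 4 in knockout mice. Lower on chow were 2 to 6, with 6 when knockout chow mouse 1 was left out and 5 when Cre chow mouse 1 or Cre MCD mouse 2 was. On MCD 6 to 9 were higher and 0 to 1 lower in knockout mice, and 6 to 10 passed in the interaction.

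Replicate numbers are shared by different mice in each group. Over 31 same-numbered pairs the correlations ran from −0.551 to 0.47, 7 exceeded 0.1, and 2 of 22 libraries correlated best with their own number. With the replicate number as a block, 10 genes were higher and 13 lower on MCD in Cre mice, 13 and 4 in knockout mice, 3 lower on chow, 6 higher and 1 lower on MCD, and 6 in the interaction. The causes of these changes were not tested. Depth limited few genes, the lowest being Acot3 with 5 counts in Cre chow mouse 6.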
